A study of Mus musculus with 48 samples.

Results

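The Zfp genes are the 340 protein-coding genes of the mm9 (NCBIM37) annotation whose symbol is Zfp followed by digits alone, out of 22232 protein-coding genes with a symbol of their own. They were chosen by name, not by any measured value, though earlier results of these data were known at that time. The annotation holds them in 344 entries because some symbols occur more than once. Peaks of N6-methyladenosine (m6A) in RNA were mapped by MeRIP-seq, in which an antibody pulls down marked RNA fragments and a peak is called wherever reads of the immunoprecipitate (IP) exceed those of the input. The tissue was the hippocampus of male wild-type mice (WT, HdhQ7/7) and of heterozygous Hdh+/Q111 knock-in mice (KI, HdhQ7/Q111), a model of Huntington's disease whose endogenous huntingtin gene has 1 copy with a lengthened CAG stretch, present in every cell. Mice of 5 or 8 months were naive or had been trained in the object location task, a spatial memory task, shortly before death. This gave 8 conditions of 3 animals, 24 animals in all, with no animal in more than 1 condition. A peak list was at hand for the IP of each animal, and p-values measure the spread between these animals.

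Most Zfp genes encode C2H2 zinc finger proteins, in which repeated loops that each hold a zinc ion by a pair of cysteines and a pair of histidines bind DNA. In mammals the largest class joins the fingers to a KRAB domain that recruits the co-repressor Trim28 and silences transposable elements, and many of its genes lie in clusters. The finger array of such a gene is usually encoded in a single long last exon, and m6A is known for its place in long internal and last exons, often near the stop codon. Members with other kinds of finger include Zfp36, which binds and destabilises AU-rich messenger RNAs.

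The gene models of the Zfp genes differed from those of the other 21892 genes in the way this background describes. The median last exon had 2229 bases in the Zfp genes and 955 bases in the others, and the median share of the coding sequence that lay in the last exon was 83.8% against 16.2%. A C2H2 match in the translated reference sequence was found in 324 of the 340 genes, with a median of 10 fingers in those, and 182 genes had at least 10. The 16 members without a match include Zfp36, Zfp185, Zfp259, Zfp330 and Zfp365. By chromosome, 86 of the members lay on chromosome 7, 39 on chromosome 17 and 31 on chromosome 13. A last exon of at least 1000 bases in a gene of at least 2 exons, called a long last exon here, was present in 293 Zfp genes and 9166 other genes, and 259 and 2320 of them had at least 500 coding bases in it.

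The sequences below are shown because they are the stretches of 100 coding bases in which most animals had a peak summit, the highest point of a peak, in some of the members with the most summits in the last exon. Capitals mark matches to DRACH, the 5-base context of m6A (D is A, G or T, R is A or G, and H is A, C or T), searched on the transcribed strand only. The first 4 stretches overlap no C2H2 finger. They are Zfp292 (chr4:34758789-34758888, minus strand, summits of 20 of 24 animals), Zfp27 (chr7:30681236-30681335, minus strand, 22 animals), Zfp386 (chr12:117297543-117297642, plus strand, 18 animals) and Zfp235 (chr7:24925544-24925643, plus strand, 20 animals), read from mm9.
Zfp292: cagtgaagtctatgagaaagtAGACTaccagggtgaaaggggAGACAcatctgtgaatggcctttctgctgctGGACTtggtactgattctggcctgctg
Zfp27: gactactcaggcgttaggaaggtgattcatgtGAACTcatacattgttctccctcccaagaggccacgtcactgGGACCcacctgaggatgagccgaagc
Zfp386: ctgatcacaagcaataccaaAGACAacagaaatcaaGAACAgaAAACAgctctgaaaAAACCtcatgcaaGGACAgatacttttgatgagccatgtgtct
Zfp235: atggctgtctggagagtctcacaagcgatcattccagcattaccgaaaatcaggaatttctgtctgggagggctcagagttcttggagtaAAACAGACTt

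The next 2 stretches, with 63% to 66% of their bases in fingers, are shown to set sequence from fingers beside the stretches above. They are Zfp54 (chr17:21570924-21571023, plus strand, summits of 17 animals) and Zfp442 (chr2:150233731-150233830, minus strand, 22 animals). Both have at least 1 AAACC and neither has a GGAC. The stretches are examples, since that of Zfp386 holds an AAACC too and a further one without a finger, in Zfp318, holds no GGAC.
Zfp54: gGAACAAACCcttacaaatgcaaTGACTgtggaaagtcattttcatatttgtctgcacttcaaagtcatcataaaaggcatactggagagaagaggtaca
Zfp442: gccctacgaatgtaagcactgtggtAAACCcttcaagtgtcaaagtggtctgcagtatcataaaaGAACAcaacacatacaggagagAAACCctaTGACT

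Peaks on Zfp genes were common in every animal. At least 1 summit lay on the body of 89.6% ± 1.68 of the Zfp genes (mean ± SD, n = 24), with 85.6% in the animal with the fewest and 92.4% in the animal with the most, against 47.3% ± 2.60 of other genes. The ranges of the 2 classes did not overlap. No input file was used here, so unexpressed genes could not be left out, and a gene without a peak cannot be told apart from a gene with little RNA. In all, 265 of the 340 Zfp genes (77.9%) had a summit in all 24 animals and 19 (5.59%) in none, against 33.8% and 39.0% of other genes. No summit in any animal was found on 16 members with at least 500 coding bases in a last exon of at least 1000 bases. The number of exons was not a condition for this count. The first by name are Zfp345, Zfp352, Zfp353, which has a single exon, Zfp42 and Zfp534. Zfp42, also known as Rex1, is a marker of pluripotent cells.

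Peak lists differed in size, from 22601 to 57293 peaks per animal, and this difference touches each count of called peaks below. Trained WT mice of 5 months had the fewest, 25767 ± 2798, and naive KI mice of 8 months the most, 48992 ± 9960, where peaks were also shorter, with a median length of 231.7 ± 82.7 bases against 348.8 ± 98.6 over all animals. Of 10 markers of hippocampal neurons, 7 had a peak in all 24 animals, among them Prox1, Neurod6 and Camk2a, and Calb1 and Spink8 had none in any. Of 7 markers of the neighbouring choroid plexus, 1 to 6 had a peak in an animal. Kl had one in all 24 and Ttr in none.

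The last exon was where most exonic summits of Zfp genes lay. Over the 293 Zfp genes with a long last exon, 76.0% ± 3.77 of exonic summits were in it (n = 24, 65.3% to 81.9%), against 58.5% ± 6.41 in the other genes. The difference was 17.5 ± 3.17 percentage points and was positive in 24 of 24 animals (permutation test by sign flips, 2-sided p = 1e-05, the smallest that 100000 resamples can give). The share of exon length that the last exon takes was 76.7% in the Zfp genes and 58.3% in the others, so that in both classes the share of summits lay close to the share of length. By part of the gene, 44.2% ± 4.16 of all summits on these Zfp genes fell in the coding part of the last exon, 19.3% ± 2.18 in its untranslated part, 20.05% ± 3.19 in other exons and 16.4% ± 2.695 elsewhere on the body. In the other genes with a long last exon the coding part of it held 14.99% ± 2.797.

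Per length, the coding part of the last exon held more summits in Zfp genes than in other genes taken as a whole. The density was 0.735 ± 0.0783 summits per kb in the 259 Zfp genes and 0.592 ± 0.0336 in the 2320 other genes, and the difference of 0.143 ± 0.0475 per kb was positive in 24 of 24 animals (permutation test by sign flips, 2-sided p = 1e-05, the smallest possible). Many of the other genes carried no peak at all. Among genes with a summit in another part of the gene in at least 1 animal, a setting chosen after seeing the data, the density was 0.771 ± 0.0846 per kb in 206 Zfp genes and 0.794 ± 0.0445 in 1606 other genes. The difference then turned to -0.0228 per kb, positive in 7 of 24 animals (permutation test, 2-sided p = 0.0192). The higher density thus held over all genes and not over genes with a peak elsewhere. In that restricted set the share of genes with a summit in the coding part of the last exon was higher in Zfp genes. It was 86.6% against 76.95% of other genes, as means over animals. This share is not per length, and coding parts were longer in Zfp genes. Their median was 1426 bases in the 259 Zfp genes and 963.5 in the 2320 other genes. Within the Zfp genes the coding part of the last exon was denser than its untranslated part, which had 0.292 ± 0.0758 summits per kb. Other exons of the Zfp genes had 0.473 ± 0.170. The 2320 other genes showed the same order, with 0.223 ± 0.0582 per kb in the untranslated part and 0.490 ± 0.211 in other exons.

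**Figure D1:**
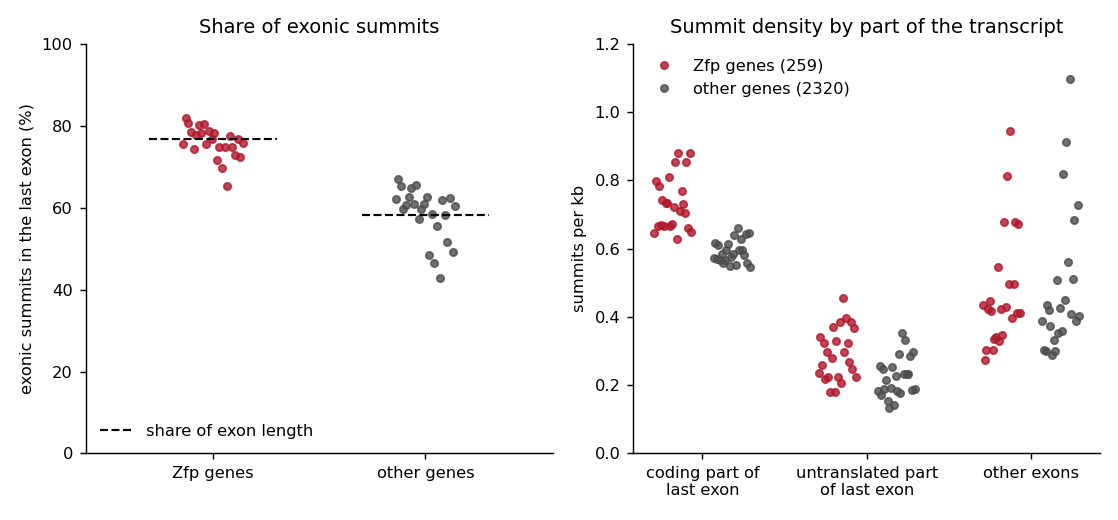
Left, percent of exonic summits in a long last exon for each of the 24 animals, in Zfp genes and in other genes, with a dashed line at the share of exon length in the last exon. Right, summits per kb in 3 parts of the transcript for genes with at least 500 coding bases in the last exon. The points of the Zfp genes lie around their length share on the left, and mostly above those of the other genes in the coding part on the right.

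Peaks on these exons were broad, so that summits understate what the peaks cover. Peaks with a summit in the coding part of a long last exon had a median length of 914 ± 267 bases in the Zfp genes and 939 ± 196 in the others. They and other peaks covered 71.3% ± 6.94 of the coding bases in the last exons of the Zfp genes (56.3% to 82.2% by animal) and 53.7% ± 4.92 in the other genes. The median fold enrichment of IP over input at these summits was 6.15 ± 0.334 in the Zfp genes and 5.62 ± 0.347 in the others, a ratio that the authors' peak caller gave.

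Summits were not spread evenly along the coding part of the last exon, which was cut into 5 stretches of equal length. In Zfp genes 27.9% ± 2.85 of the summits lay in the first stretch, 13.8% ± 1.62 in the middle one and 21.6% ± 1.78 in the last, which ends at the stop codon. Other genes had 14.5% ± 1.03 in the first stretch and 25.0% ± 1.201 in the last. Within 200 bases of the stop codon lay 16.7% ± 1.498 of the Zfp summits, where an even spread over length would put 14.3% ± 0.319. For other genes these values were 24.1% ± 1.68 and 19.3% ± 0.542.

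The finger array held fewer summits than its length. Over 251 Zfp genes with a finger and a long coding last exon, 56.9% ± 3.30 of summits lay between the first and the last finger, while the array made up 68.2% ± 0.546 of the coding bases behind these summits. The share of summits was the lower of the 2 in 24 of 24 animals. Fingers alone, without the linkers, held 42.2% ± 4.86 of summits against 47.0% ± 0.524 of bases, and 4 of 24 animals had the higher share in summits. Peaks covered 70.7% ± 6.88 of the bases of the arrays and 74.5% ± 7.35 of the other coding bases, with the array lower in 22 of 24 animals. Finger arrays resemble one another in sequence and the authors kept only reads that map to 1 place; the part of this in the lower share was not tested.

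**Figure D2:**
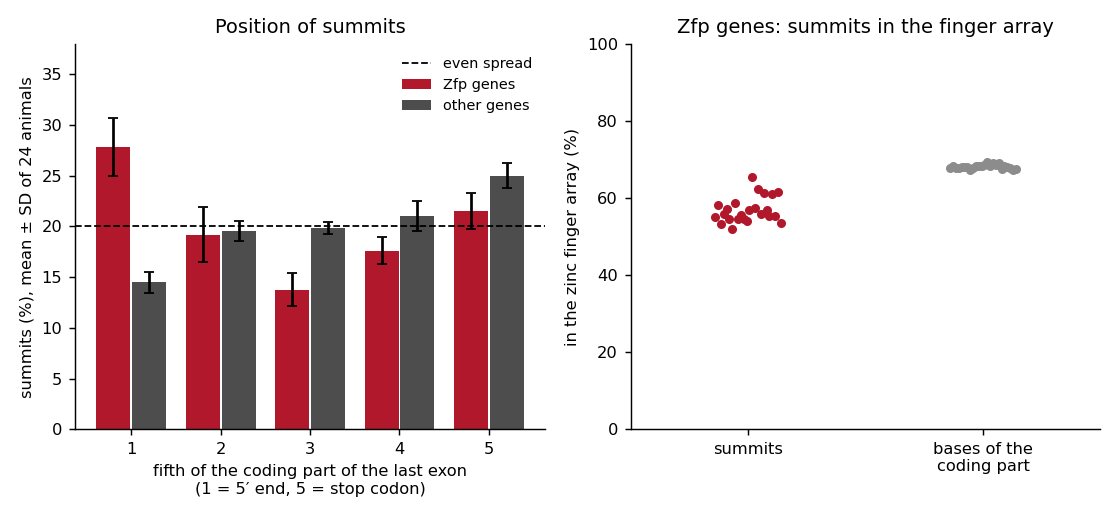
Left, percent of summits in each of 5 equal stretches of the coding part of the last exon, as mean and SD over 24 animals, with a dashed line at the 20% of an even spread. Right, percent of summits and percent of bases of Zfp genes in the finger array, 1 point per animal; the summits sit between 52.0% and 65.4%, below the bases in every animal.

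Summits of both classes were richer in the motif core GGAC than their exons, and those of Zfp genes held less of it than those of other genes. GGAC occurred in 29.8% ± 2.58 of windows of 100 bases on the summits in the coding last exons of Zfp genes (24.8% to 34.2% by animal), against 20.4% ± 0.558 of all windows of the same coding parts. In other genes it occurred in 47.1% ± 1.76 of the windows on summits and 36.7% ± 0.309 of all windows. Summits thus had more GGAC than their own exons in 24 of 24 animals in both classes. Only the transcribed strand was searched, and windows came to 225 to 315 per animal in Zfp genes.

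Inside finger arrays GGAC was rarer, at 1.68 per kb against 3.78 per kb in the rest of the same coding parts and 4.47 per kb in coding last exons of other genes. AAACC showed the opposite order, with 5.00, 2.96 and 1.43 per kb. Of all DRACH matches at Zfp summits 15.4% ± 1.79 were AAACC, against 19.9% in all of the coding parts. GGACT took 4.36% ± 0.451 against 3.34%, GGACA 5.29% ± 0.580 against 4.17% and GAACT 6.73% ± 0.727 against 5.16%. GGACC went the other way, with 2.28% ± 0.492 against 2.83%. Each motif that ends in ACT had a higher share at summits, among them TGACT (4.97% ± 0.788 against 3.79%). Of the motifs that end in ACC, GAACC alone did (3.54% ± 0.454 against 3.43%). The shift was thus not one toward GGAC alone. The number of DRACH matches per window was 2.53 ± 0.0798 at Zfp summits and 2.02 in windows over the whole coding parts. Of the stretches printed above without a finger, those of Zfp292, Zfp27 and Zfp386 hold a GGAC and that of Zfp235 does not.

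**Figure D3:**
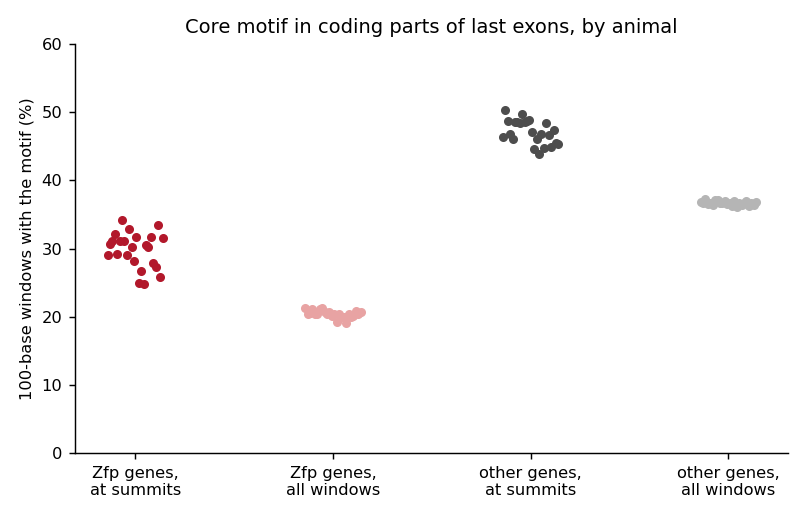
Percent of windows of 100 bases that hold the core motif GGAC, with 1 point per animal, at summits and over all windows of the coding parts of long last exons. Points at summits lie above those for all windows in each of the 2 classes, and both classes of windows are lower in Zfp genes than in other genes.

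The number of fingers went along with how often a last exon was marked. The 8 long coding last exons without a C2H2 match had a summit in 51.6% ± 10.6 of genes per animal, the 19 with 1 to 4 fingers in 68.9% ± 4.37, the 66 with 5 to 9 in 79.9% ± 2.74, the 112 with 10 to 14 in 86.6% ± 2.36 and the 54 with 15 or more in 86.0% ± 3.74. The median coding length ran from 1011 bases with 1 to 4 fingers to 1858 with 15 or more, and per length the classes with fingers ran from 0.661 ± 0.103 to 0.806 ± 0.0578 summits per kb without such an order. Across the 259 members, which are not independent replicates, the summed summits had a Spearman rho of 0.51 with coding length and 0.41 with the number of fingers.

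The 10 members listed here led by the number of summits in the coding part of the last exon, summed over the 24 animals, and 9 of them had at least 1 there in every animal. Zfp292, with 7080 coding bases in a last exon of 8931 (gene at chr4:34750362-34830209), had 96 summits, a median of 4 and 2 to 7 per animal. By condition, its 3 animals had 10 in naive WT, 11 in naive KI, 10 in trained WT and 10 in trained KI mice at 5 months, and 11, 18, 14 and 12 at 8 months. The highest count was thus in the naive KI group of 8 months, which had the most peaks. The best fold enrichment in an animal at this exon ran from 4.54 to 11.1 with a median of 7.12.

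The next in order were Zfp318 with 59 summits, Zfp629 with 57, Zfp748 with 55 and Zfp526 with 54. Zfp318, which acts in the choice between IgM and IgD transcripts of B cells, has 2 fingers by the match used here and 3150 coding bases in the last exon. Zfp27 and Zfp386 had 53 each, Zfp235 and Zfp54 52 each and Zfp442 50. Zfp54 lacked a summit there in 1 trained WT animal of 5 months. The median of the best fold enrichment per animal ran from 4.95 in Zfp235 to 8.93 in Zfp54 over these 9 genes. Of the 10 genes Zfp27 had the widest range, from 4.57 to 16.1, and Zfp629 the narrowest, from 3.91 to 7.83.

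The named Zfp genes without a C2H2 match were mixed. Zfp36 had 24 summits in the coding part of its last exon, and had a last-exon peak in 24 of 24 animals, as did Zfp330 and Zfp259, which encodes Zpr1. Zfp365 had one in 10 animals, and Zfp185 had none there and a peak on the gene in 2 animals.

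Of 19 genes in the annotation that KRAB zinc finger proteins use as partners for silencing, 9 had a peak in all 24 animals and 4 had none in any. The former include the histone methyltransferase Setdb1, its cofactor Atf7ip, the remodellers Chd4 and Atrx and the DNA methyltransferase Dnmt3a. The latter are Trim28 itself, Cbx3, Dnmt3b and Uhrf1. Of 8 partners with a long last exon, 2 had a summit in it in all 24 animals (Dnmt3a and Trim33), beside 217 of the 293 Zfp genes (74.1%) and 42.9% of the other genes with a long last exon.

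The share of Zfp genes with a summit in their long last exon was nearly level over the 8 conditions. At 5 months it was 87.6% ± 2.19 in naive WT, 88.3% ± 1.199 in naive KI, 84.9% ± 2.58 in trained WT and 89.0% ± 1.199 in trained KI mice, with n = 3 in each. At 8 months it was 88.7% ± 1.81, 90.0% ± 1.10, 88.4% ± 1.49 and 87.8% ± 0.711 in the same order. The animals ran from 81.9% in a trained WT animal of 5 months to 90.8% in a naive KI animal of 8 months. Over both ages and both states of training, KI mice exceeded WT mice by 1.37 percentage points (88.8% ± 1.25 against 87.4% ± 2.37, n = 12 in each, stratified permutation test, p = 0.0811, adjusted over 3 tests 0.125). Trained and naive mice differed by -1.14 points (permutation p = 0.125, adjusted 0.125), and mice of 8 and of 5 months by 1.31 points (permutation p = 0.0919, adjusted 0.125). None of the 3 passed the test in Zfp genes. In the other genes with a long last exon the same 3 differences were 2.18, -1.96 and 2.38 points. Each of these had an adjusted p of 0.056 in the stratified permutation test.

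Within single comparisons of 3 against 3 animals, where the smallest possible p of the exact test is 0.1, the largest difference was that between trained KI and trained WT mice of 5 months. It was 4.10 points, and the groups did not overlap (exact permutation test, p = 0.1, adjusted over 8 comparisons 0.4). In the other genes the same comparison gave 5.28 points (58.9% ± 3.43 against 53.7% ± 1.49). Trained KI mice of 8 months lay 2.16 points below naive ones (exact p = 0.1, adjusted 0.4), and in other genes 4.13 points below. The change with training passed no test of a difference between genotypes at 5 months (3.41 points, exact permutation of labels within genotype, p = 0.185) or at 8 months (-1.82 points, exact p = 0.31).

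**Figure D4:**
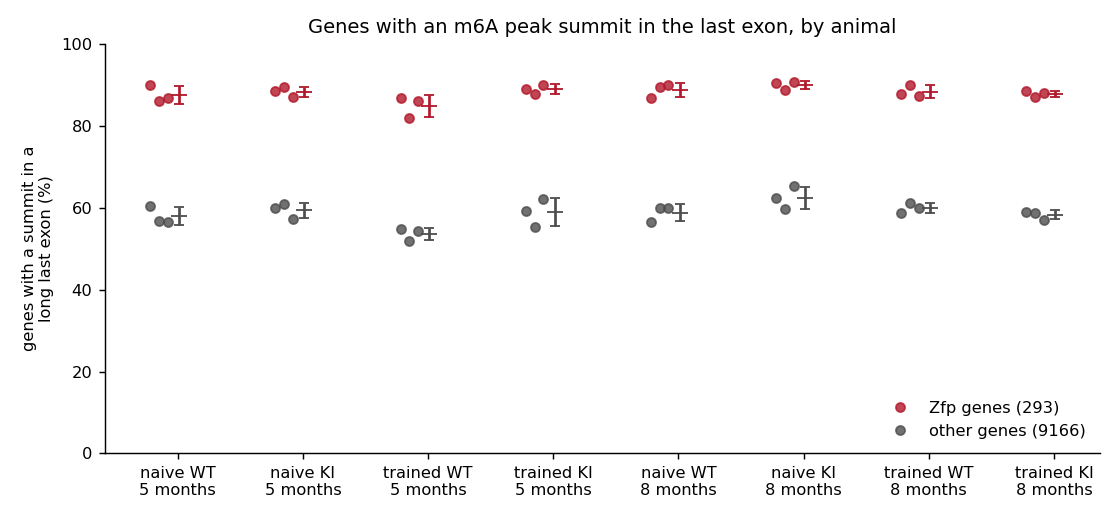
Percent of genes with a summit in a long last exon, 1 point per animal with the mean and SD of each condition beside it, for 293 Zfp genes and 9166 other genes. Zfp genes lie between 81.9% and 90.8% in all conditions, above every value of the other genes.

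Single regions were compared next. Overlapping peaks of the 24 lists were merged into 81807 common regions, and 1058 of these held a summit on a Zfp gene. Of the latter 363 (34.3%) were called in all 24 animals, against 14.9% of all regions, and 373 were called in 3 to 21 animals and could be tested for a factor, with animals as the unit and 12 against 12.

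By genotype, 13 of the 373 Zfp regions (3.49%) had an unadjusted Fisher's exact p under 0.05, beside 1.79% of all 35110 regions tested, and none passed after adjustment over all regions. All 13 were called in more KI than WT animals, as were 605 of the 629 such regions overall (96.2%). The count of Zfp regions was 4 with an equal number of best peaks per animal and 5 with a -log10 q of at least 5. The lowest p was that of an exon before the last in Zfp956 (chr6:47905606-47906118), seen in 9 KI mice and 2 WT mice (Fisher's exact p = 0.0123, adjusted 1). Its fold enrichment lay between 2.55 and 6.04 where it was called. Next came regions of Zfp462, Zfp644, Zfp651 and Zfp945. The Zfp945 region, in the untranslated part of the last exon, was seen in 11 KI mice and 5 WT mice, and that of Zfp462, outside the exons of the transcript used, in 7 and 1.

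By training, 6 Zfp regions (1.61%) had an unadjusted p under 0.05, beside 1.44% of all regions, each called in fewer trained animals, as were 459 of 504 overall (91.1%). None passed after adjustment, and the count was 2 with an equal number of best peaks per animal and 3 with a -log10 q of at least 5. A region of Zfp827 outside the exons of the transcript used was called in 6 naive and no trained animals (Fisher's exact p = 0.0137, adjusted 1). A region over the coding last exon of Zfp931 (chr2:177802372-177803104) was called in 11 naive and 5 trained animals (Fisher's exact p = 0.0272, adjusted 1). The others are regions of Zfp457, Zfp462, Zfp532 and 1 further member.

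Age gave the most. By age, 51 Zfp regions (13.7%) had an unadjusted p under 0.05, beside 9.8% of all regions, 48 of them called in more animals of 8 months and 3 in more of 5 months. Over all regions 3111 of 3440 (90.4%) were called in more animals of 8 months. None passed after adjustment, where the lowest value was 0.188. It belonged to a region of Zfp628 (chr7:4868796-4869095, in an exon before the last) that was called in 11 animals of 8 months and 1 of 5 months (Fisher's exact p = 0.000107). The fold enrichment was 5.52, 7.01 and 6.82 in naive WT and 13.9, 8.74 and 4.54 in naive KI mice of 8 months, and 3.17, 6.56 and 4.72 in trained KI mice. Trained WT mice of 8 months had it in 2 animals, at 3.91 and 6.16, and of the 5-month animals a single trained KI mouse had it, at 5.83.

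The other 4 regions lowest in p by age were also seen in more mice of 8 months. They lay in the untranslated part of the last exon of Zfp740 (10 animals of 8 months and 1 of 5), in an exon before the last of Zfp831 (8 and 0), of Zfp148 (9 and 1) and of Zfp746 (9 and 1). Zfp148 encodes ZBP-89, which binds GC-rich promoters, and Zfp746 encodes PARIS, a repressor of PGC-1alpha. Of these 5 regions 1 lay in a last exon, and none in its coding part. Group means of the number of peaks ran from 33735 to 48992 at 8 months and from 25767 to 36589 at 5 months, and with an equal number of best peaks per animal the count of 51 was 19. With a -log10 q of at least 5 it was 24.

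Regions called in 3 of 3 animals of a group and 0 of 3 of the other numbered 0 to 12 among Zfp genes. Shares are of the regions called in at least 1 of the 6 animals, and each Zfp share stands beside that over all such regions. They are described here by comparison, beside the rows of Zfp genes in the authors' tables. Those tables list only peaks that passed a p-value of the authors in a comparison of 2 groups, with a mean level per group on the log2 scale, and their rows are a selected list with no spread between animals. The groups of a table are taken in the order in which the series' design names them. A row is called past 1 here when its group means differ by over 1 on the log2 scale. Of the 340 Zfp genes 289 (85.0%) were listed in at least 1 of the 8 tables between 2 groups, beside 44.0% of other genes. Among genes with a summit in every animal the shares were 94.0% and 93.4%. In all 8 tables were 11 Zfp genes (3.24%, beside 1.87% of other genes), among them Zfp238 and Zfp106. Among genes with a summit in every animal the order was the reverse, with 4.15% of Zfp genes and 5.37% of other genes. The centre of a Zfp row lay in the coding part of the last exon in 31.6% to 48.6% of these rows, by table. Zfp rows were taken by their symbol alone, so that rows centred outside the gene count among them. The Zfp553 rows past 1 start at chr7:134536566 or further on, while that gene ends at chr7:134381693.

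Naive KI against naive WT mice at 5 months gave Zfp rows with mostly lower means in KI. The table held 175 Zfp rows, with a higher mean in KI in 43 (24.6%), beside 32.7% of all 6169 rows. Past 1, KI was higher in 11 Zfp rows (6.29% of Zfp rows, beside 5.67% of all rows) and WT in 2 (1.14% of Zfp rows, beside 2.53% of all rows). The largest were an exon of Zfp664 (8.59 in KI and 5.51 in WT), the coding last exon of Zfp428 (8.78 and 5.89), and an exon of Zfp689 (8.43 and 6.39, a row that also carries the symbol Zfp553), all log2 mean levels. The Zfp428 row had a peak in 2 of 3 animals of both groups, so its difference did not go with the calls. The 2 higher in WT were Zfp14 (5.26 and 6.94, a row outside the gene) and Zfp346 (5.78 and 6.88), which binds double-stranded RNA. Regions seen in each of the 3 KI mice and in none of the 3 WT mice numbered 5 on Zfp genes (0.649%, beside 0.726% of all regions), and 2 went the other way (0.26%, beside 0.123%). Zfp395 is one of the former, in the untranslated part of its last exon (chr14:66014991-66015428), with a fold enrichment of 3.52, 3.10 and 4.15 in the 3 naive KI mice and no call in naive WT mice. The others are Zfp462, Zfp516, Zfp668 and Zfp672, and the 2 in WT are Zfp457 and Zfp593.

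Trained KI against trained WT mice at 5 months gave the opposite lean. Of 152 Zfp rows, 138 (90.8%) were higher in KI, beside 78.7% of all 5699 rows. The median difference was 0.33 in Zfp rows and 0.35 in all rows (log2). Past 1, KI was higher in 2 (1.32% of Zfp rows, beside 4.65% of all rows), Zfp931 (7.50 and 5.87) and Zfp474 (7.48 and 6.25), and WT in 3 (1.97% of Zfp rows, beside 3.04% of all rows), Zfp142 (6.24 and 7.66), Zfp598 (7.86 and 9.22) and Zfp580 (7.92 and 9.08). Zfp598 encodes a ubiquitin ligase of collided ribosomes. On Zfp genes 12 regions were seen in each of the 3 trained KI mice and no trained WT mouse (1.64%, beside 1.83% of all regions), and none went the other way (beside 0.0276%). They include Zfp931, Zfp275, Zfp263, Zfp462, Zfp608 and Zfp637. The Zfp931 region had a fold enrichment of 3.54, 4.02 and 4.47 in trained KI mice of 5 months, and no call in trained WT mice. In naive mice of that age it had 7.13, 4.12 and 4.06 in WT and 2.77, 2.95 and 5.23 in KI animals. The trained WT animals of 5 months had the fewest peaks of all groups, and the count was 1 when each animal gave the same number of best peaks.

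At 8 months, naive KI against naive WT mice gave 134 Zfp rows, of which 71 (53.0%) were higher in KI, beside 63.8% of all 6677. Past 1, KI was higher in 3 (2.24% of Zfp rows, beside 6.74% of all rows) and WT in 1 (0.746% of Zfp rows, beside 1.75% of all rows). The former were Zfp275 (6.90 and 5.69), Zfp704 (8.55 and 7.53) and a row named Zfp292 centred outside the gene, beside its first exon (6.50 and -0.13), although 2 of 3 WT animals had a peak there. The last is Zfp474 (5.85 and 7.20). On Zfp genes 10 regions were seen in each of the 3 naive KI mice and no naive WT mouse (1.04%, beside 1.15% of all regions) and none went the other way (beside 0.0384%). A region of Zfp316 lay in the untranslated part of its last exon, and the others, among them regions of Zfp13, Zfp142, Zfp275 and Zfp498, lay outside the last exon.

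Trained KI against trained WT mice at 8 months gave 142 Zfp rows, with 102 (71.8%) higher in KI, beside 58.5% of all 6893. Past 1, KI was higher in 2 (1.41% of Zfp rows, beside 2.54% of all rows) and WT in 3 (2.11% of Zfp rows, beside 5.7% of all rows). Zfp106, which encodes an RNA-binding protein, had 10.27 in KI and 9.17 in WT mice with a peak in all 6 animals. Zfp462 had 6.58 and -0.10, with a peak in 2 of 3 animals of each group, so its difference did not go with the calls. Zfp553 (5.42 and 7.34, a row outside the gene), Zfp704 (5.24 and 6.40) and Zfp438 (5.70 and 6.82) were higher in WT. Of 826 Zfp regions, none was seen in each trained KI mouse and no trained WT mouse (beside 0.122% of all regions) or the other way (beside 0.585%).

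Training in WT mice at 5 months gave Zfp rows with lower means after training. Of 153 Zfp rows, 17 (11.1%) were higher in trained mice, beside 15.9% of all 5962. Past 1, trained mice were higher in 5 (3.27% of Zfp rows, beside 2.35% of all rows), among them Zfp653 (8.65 and 7.01), Zfp397 (9.77 and 8.28), Zfp219 (10.85 and 9.55), Zfp91 (7.69 and 6.44) and Zfp423 (10.98 and 9.85), a partner of EBF and Smad proteins. Naive mice were higher in 8 (5.23% of Zfp rows, beside 6.79% of all rows), led by a Zfp553 row outside the gene (1.2 and 5.76, with a peak in 2 of 3 animals of both groups), Zfp74 (7.35 and 8.95), Zfp942 (6.02 and 7.38), Zfp652 (5.86 and 7.15) and Zfp867 (7.44 and 8.63). On Zfp genes 10 regions were called in 3 of 3 naive and 0 of 3 trained WT mice (1.42%, beside 1.06% of all regions) and none the other way (beside 0.0483%). Of them 3 lay in coding last exons, those of Zfp457, Zfp458 and Zfp931, and Zfp275, Zfp334 and Zfp608 are others. The Zfp457 region (chr13:67394797-67395097) had a fold enrichment of 4.40, 4.40 and 4.41 in the 3 naive WT mice of 5 months and was seen in 2 more animals, both naive KI mice of 8 months.

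Training in KI mice at 5 months gave the lean that differed most from its table. Of 190 Zfp rows, 138 (72.6%) were higher in trained mice, beside 50.4% of all 7830. The median difference was 0.24 in Zfp rows and 0.17 in all. Past 1, trained mice were higher in 4 (2.11% of Zfp rows, beside 1.98% of all rows), Zfp14 (6.30 and 5.11, outside the gene), Zfp72 (6.56 and 5.48), Zfp474 (7.49 and 6.42) and a Zfp708 row outside the gene (5.68 and 4.62). Naive mice were higher in 6 (3.16% of Zfp rows, beside 9.92% of all rows), led by Zfp326 (7.02 and 8.86), part of a complex that links splicing to transcription, Zfp935 (5.63 and 7.28), Zfp784 (5.35 and 6.81), Zfp598 (6.73 and 7.93) and Zfp407 (6.21 and 7.27). On Zfp genes 3 regions were called in 3 of 3 trained and 0 of 3 naive KI mice (0.38% of Zfp regions, beside 0.31% of all regions), Zfp72, Zfp593 and Zfp637, and 1 the other way (0.127%, beside 0.38%), Zfp668. Zfp72 (chr13:74511565-74512205) had a fold enrichment of 6.69, 5.16 and 4.29 in the 3 trained KI mice.

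Training at 8 months gave Zfp rows that were more evenly split. In WT mice 86 of 204 Zfp rows (42.2%) were higher in trained mice, beside 49.6% of all 8083, and in KI mice 90 of 172 (52.3%), beside 45.3% of all 7221. Past 1, trained WT mice were higher in 5 rows (2.45% of Zfp rows, beside 5.84% of all rows), Zfp933, Zfp53, Zfp9, Zfp236 and Zfp949, by 1.02 to 1.33, and naive WT mice in 2 (0.98% of Zfp rows, beside 2.97% of all rows), Zfp74 (7.37 and 8.4) and Zfp462 (-0.10 and 6.63, with a peak in 2 of 3 animals of both groups). Of 830 Zfp regions, none was called in 3 of 3 trained and 0 of 3 naive WT mice (beside 0.557% of all regions) or the other way (beside 0.178%).

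In KI mice of 8 months trained animals were higher past 1 in 2 rows (1.16% of Zfp rows, beside 2.35% of all rows), Zfp810 (7.26 and 5.16, a row outside the gene) and Zfp9 (8.28 and 6.88), and naive animals in 7 (4.07% of Zfp rows, beside 5.32% of all rows), led by Zfp879 (4.77 and 6.57), Zfp142 (5.17 and 6.75), Zfp628 (5.05 and 6.49), Zfp275 (5.66 and 6.95) and Zfp286 (5.29 and 6.47). On Zfp genes 12 regions were called in 3 of 3 naive and 0 of 3 trained KI mice (1.26%, beside 1.51% of all regions) and none the other way (beside 0.0404%). Of the 12, 6 lay mainly outside the exons of the transcript used, and the region of Zfp808 was the single one in a coding last exon. Zfp142, Zfp275, Zfp286, Zfp423 and Zfp498 are others. The Zfp672 region (chr11:58132879-58133143) was called in the 3 naive KI mice of 8 months, with a fold enrichment of 3.04, 2.55 and 2.71, and in no other animal. With the same number of best peaks per animal the count was 1.

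Comparisons that share a group are not independent, and trained WT mice of 5 months stand in both comparisons with the strongest lean, 90.8% of Zfp rows higher in trained KI than in trained WT and 11.1% higher in trained than in naive WT. Trained WT mice were the lower group in both.

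**Figure D5:**
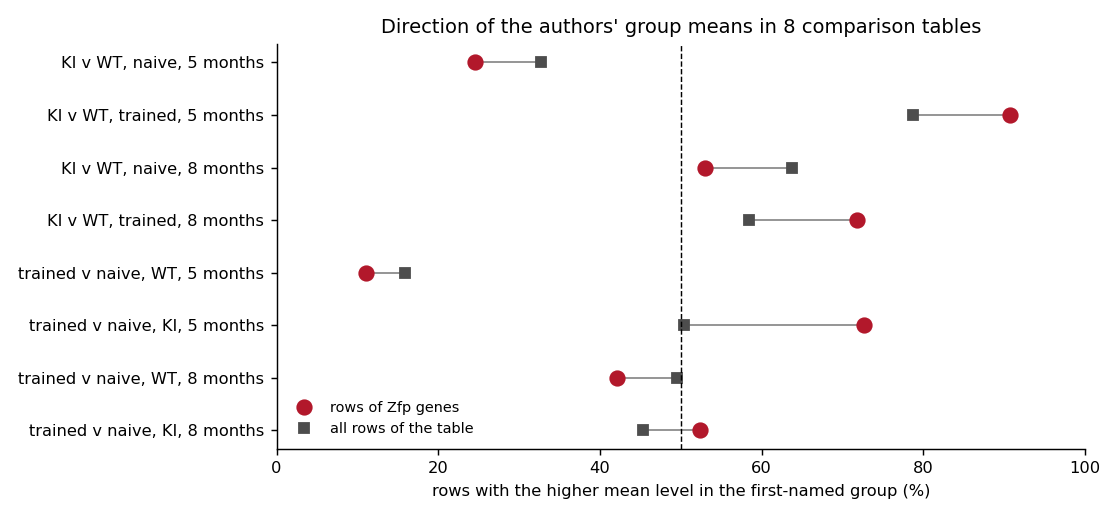
Percent of rows whose authors' mean level was higher in the first-named group, for Zfp rows (circles) and all rows (squares) of 8 tables, with a dashed line at 50%. The widest gap is that of trained against naive KI mice at 5 months, 72.6% against 50.4%, and in 4 of 8 tables the Zfp rows have the higher percent.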

How the data were processed

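MeRIP-seq of the hippocampus gave 48 libraries, an IP and an input from each of 24 mice; no input file was used here. Per the study's methods and the submitters' processing notes, reads were trimmed, aligned to mm9 with STAR 2.7.3a and kept if uniquely mapped outside repeats, and peaks were called per IP against its own input with MACS2 2.2.6. The deposited peak lists hold a score, the fold enrichment (a ratio) at the summit and the -log10 of p and q. The tables of the authors, from DiffBind 2.8.0, hold log2 mean levels per group and a gene symbol; their fold changes, p-values and adjusted p-values were not used, nor were the levels of the 2 tables that pool genotypes. Library depth is not in the files.

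Members and lists were chosen with earlier results of these data known. Each gene was represented by its transcript with the longest coding sequence (gencode vM1), and each summit was placed in its last exon, other exons or the rest of the body. Peaks carry no strand. Permutation tests used 100000 resamples and were 2-sided, as were Fisher's exact tests, with Benjamini-Hochberg adjustment; they were checked on simulated data. Python 3.11.15, scipy 1.17.1, pysam 0.24.0 and bedtools 2.31.1 were used. Named genes were the 10 members with the most coding last-exon summits, the 5 lowest in p per factor, up to 5 per comparison and direction for regions and for table rows past 1 (log2), up to 5 with no summit, up to 5 with no C2H2 match, and the KRAB partners (Fam208a has no entry of that name). Zfp106 and Zfp238, Zfp474 among single rows and Zfp808 were named after their values were seen where these rules do not reach them. C2H2 fingers were found in the translated genome as a pair of cysteines with 2 or 4 residues between them, 12 residues, and a pair of histidines with 3 to 5 between them. Alternatives for peaks were a -log10 q of at least 5, an equal number of best peaks (22601) and any overlap. For genes they were last exons of 500 or 2000 bases and genes with no overlap. For regions they were a 50% reciprocal overlap and a test stratified by the other factors. For table rows they were a difference over 2 and rows centred on the body of a Zfp gene, the latter without values given here. Windows of 50 or 200 bases and each animal left out were the others.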

Additional observations from a re-analysis of the deposited data

How the results depend on the processing

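The share of summits in the last exon, Zfp genes less other genes, stayed at 16.3 to 19.15 points in 6 alternatives (peak threshold, number of peaks, overlap, length of the last exon, genes without overlap) and at 17.2 to 17.7 points with any 1 animal left out, with the permutation p at 1e-05 throughout. The density difference stayed positive and past the threshold in the same 6 (0.0958 to 0.181 per kb) and with any animal left out (0.139 to 0.146), but was -0.0228 among genes with a summit in another part of the gene, as given above. Zfp genes with a peak came to 86.8% with a -log10 q of at least 5 and 84.4% with an equal number of best peaks. The excess of GGAC at summits fell to 6.77 points in windows of 50 bases.

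Differences in the share of Zfp genes with a last-exon peak passed no test in any alternative, with an adjusted permutation p from 0.12 for the 3 factors, and from 0.0562 with 1 animal left out. With an equal number of best peaks several signs turned. Mice of 8 less 5 months then gave -0.995 points, trained less naive 0.54, KI less WT -1.48 in naive mice and 0.569 in trained mice of 8 months, and trained less naive 1.02 in KI mice of 8 months and 0.91 in WT mice of 5 months. Trained less naive in WT mice of 8 months gave 0.114 with a -log10 q of at least 5. With 1 animal left out, KI less WT ran from -0.114 to 1.93 points in naive mice of 5 months and from -1.08 to 0.284 in trained mice of 8 months, and trained less naive in WT mice of 8 months from -1.37 to 0.341. The animals whose absence turned the sign were the naive WT animal of 5 months with 86.0% of Zfp genes marked, the trained WT animal of 8 months with 90.1% and, in the last, the naive WT animal of 8 months with 90.1% and the trained one with 87.4%.

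Counts of Zfp regions called in 3 of 3 against 0 of 3 animals moved most. With a 50% reciprocal overlap the counts by genotype at 5 months were 13 and 4 (naive KI, naive WT) and 6 and 4 (trained KI, trained WT), and at 8 months 1 (naive WT) and 5 (trained WT); by training they were 6 and 3 (naive, trained WT) and 3 and 0 (naive, trained KI) at 5 months, and 1 and 10 (naive, trained WT) and 1 (trained KI) at 8 months. With a -log10 q of at least 5 they were by genotype 3 and 0 (naive KI, naive WT) and 7 (trained KI) at 5 months, and 2 (naive WT) and 2 (trained WT) at 8 months; by training 3 and 0 (naive, trained KI) at 5 months, and 1 (naive WT) and 4 (naive KI) at 8 months. With an equal number of best peaks they were by genotype 1 and 1 (naive KI, naive WT) and 1 (trained KI) at 5 months, and 4 and 3 (naive KI, naive WT) and 1 and 3 (trained KI, trained WT) at 8 months; by training 4 and 1 (naive, trained WT) and 0 (naive KI) at 5 months, and 2 and 2 (naive, trained WT) and 1 and 3 (naive, trained KI) at 8 months. Rows whose means differ by over 2 numbered 3, 0, 1 and 1 by genotype (naive and trained at 5, then at 8 months) and 1, 0, 1 and 1 by training (WT and KI at 5, then at 8 months). No Zfp region passed the adjusted test for a factor in any alternative. The causes were not tested. No paired comparison of conditions was possible because no animal is in 2 conditions. IP and input libraries, which share animal numbers, were not paired because no input file was used here. A region without a call is not a region without m6A, since depth per library is not in the files.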

Other observations

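Other zinc finger families, taken by symbol and digits, showed last-exon peaks to different extents. Of 27 Zbtb genes with a long last exon, 25 (92.6%) had a summit in it in all 24 animals, as did 9 of 9 Zkscan genes, 10 of 12 Klf genes, 6 of 11 Prdm genes and 4 of 7 Zscan genes, beside 217 of 293 Zfp genes (74.1%) and 42.9% of the other genes with a long last exon. The share of exonic summits in the last exon was below its share of length in each of the 5 families, 71.6% against 82.8% in Zbtb, 59.7% against 63.3% in Zkscan, 56.8% against 68.6% in Klf, 53.7% against 60.7% in Prdm and 46.7% against 58.6% in Zscan genes. In the Zfp genes it was 75.5% against 76.7%, with summits summed over animals. These are descriptions of few genes per family and carry no test.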
